A study of Homo sapiens with 27 samples.

Results

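Glycolysis turns glucose into pyruvate in the cytosol, and lactate dehydrogenase then turns pyruvate into lactate while giving back the NAD+ that the pathway uses. Leukaemia cells, like many dividing cells, run this route even when oxygen is at hand, and the transcription factors c-Myc and HIF-1 are known regulators of its genes. Most steps can be carried out by more than 1 isozyme, each encoded by its own gene. The 10 genes described here encode an enzyme of each of 10 steps: HK2 (hexokinase 2), GPI (glucose-6-phosphate isomerase), PFKP (platelet-type phosphofructokinase), ALDOA (aldolase A), GAPDH (glyceraldehyde-3-phosphate dehydrogenase), PGK1 (phosphoglycerate kinase 1), PGAM1 (phosphoglycerate mutase 1), ENO1 (enolase 1), PKM (pyruvate kinase) and LDHA (lactate dehydrogenase A). They were picked by symbol, by a rule that used no values, though earlier results of these data were known when they were chosen. All 10 of 10 were found among the 57905 genes of the U937 table. All 10 passed the filter on low values in each comparison.

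RNA-seq was carried out on U937, a human cell line that the study describes as acute myeloid leukemia. Of the 9 libraries, 3 came from control cells, 3 from cells exposed for 30 min to matrine, a plant alkaloid, and 3 from cells exposed for 24 h. The dose was 0.8 mg/ml at both times, and the study's vehicle was ddH2O. Each time was set against the same 3 controls. How long the control cells were cultured is not given in the sources used here, so time in culture and 24 h of matrine cannot be told apart. Nothing in the labels says that the 3 libraries of a group came from separate cultures, so p-values measure the spread between these libraries, which may be technical. All of them carry 1 cell line, and the 18 libraries of other lines among the 27 of the series were not analysed here.

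Total counts per library lay between 17314931 and 21930018, and each of the 10 genes held between 3000 and 99319 counts in every library. No pair of libraries in a group matched within sampling noise (chi-square per degree of freedom of 2.20 to 13.6 across genes), so none was counted as a copy of another. This does not say whether their spread is biological. Of 13 myeloid and monocytic marker genes, 10 had a mean FPKM (fragments per kilobase of gene model, scaled to the library's total) above 1, and their summed FPKM ran from 2659 to 3056 in the control and from 3088 to 3252 at 24 h. These markers went both ways: of the 11 tested at 24 h, 6 rose, 3 fell and 2 did not pass the test (edgeR), beside 30.6% higher and 32.7% lower over all genes tested. MPO, 1 of the 6, had a mean of 0.313 FPKM in the control and 1.84 at 24 h. It passed the filter on low values only through the 24 h libraries, so it could enter the test only by rising. ELANE and AZU1, genes of neutrophil granule proteins, had means of 885 and 205 FPKM in the control and 1378 and 356.7 at 24 h, PRTN3, a further granule protease, had 646 and 300.4, LYZ (lysozyme) 292 and 244, and SPI1, which encodes the myeloid transcription factor PU.1, 67.6 and 56.0. The summed FPKM of 4 T cell markers was 0 in every library, and that of 8 erythroid markers was at most 4.12, of 4 B cell markers at most 5.41 and of 7 epithelial and stromal markers at most 0.13.

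In control cells the 10 genes spanned a wide range of levels per length. GAPDH had the highest FPKM, 1132, 1266 and 1171 in control replicates 1, 2 and 3 (mean 1189 ± 69.0, SD, n = 3), and ENO1 came next at 1039 ± 40.8. PKM followed at 520 ± 13.7, ALDOA at 316.5 ± 15.04, PGK1 at 188 ± 1.26, LDHA at 154 ± 1.85, GPI at 138 ± 4.03, PGAM1 at 93.0 ± 4.06, PFKP at 43.0 ± 0.21 and HK2 at 31.4 ± 1.56. No pair of neighbours in this order overlapped between the control libraries. The first phosphorylating enzymes, HK2 and PFKP, thus had the lowest levels of the 10. Together the 10 genes took 1.798% ± 0.059 of all counts in the control, 1.84% ± 0.082 at 30 min and 1.57% ± 0.037 at 24 h (SD, n = 3 each).

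**Figure D1:**
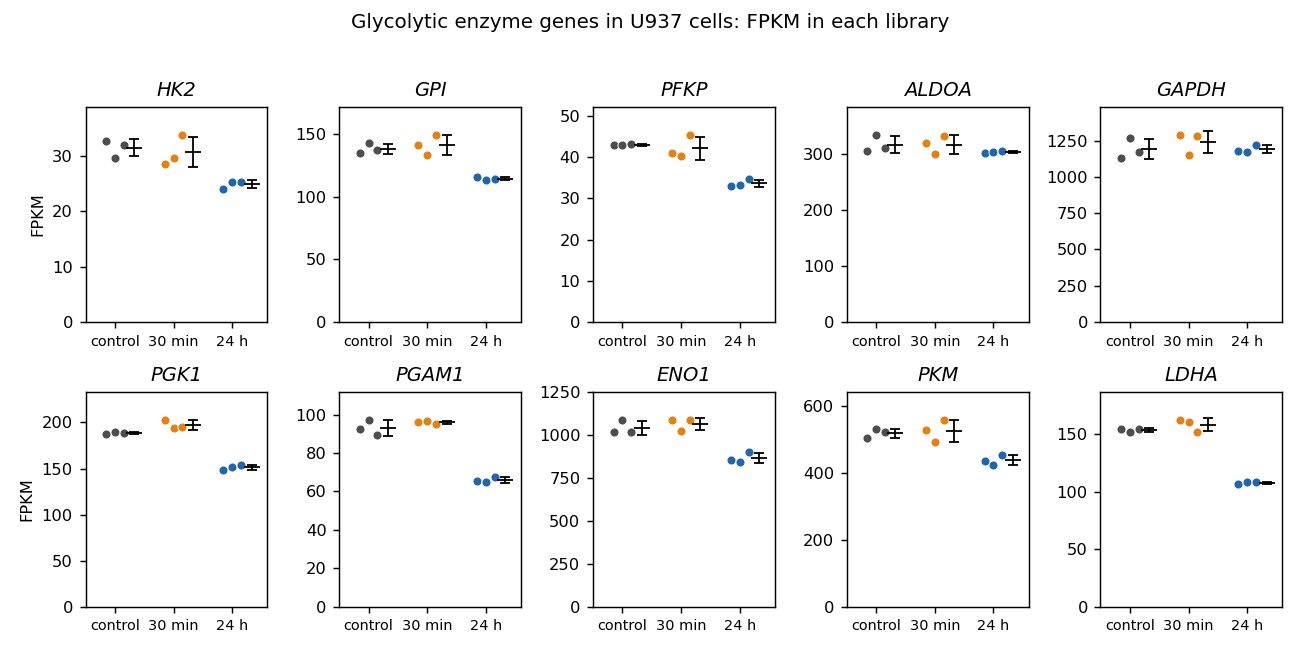
FPKM of the 10 glycolytic enzyme genes in each U937 library. Points are single libraries of control cells, matrine 30 min and matrine 24 h (replicates 1 to 3 from left to right), and the bar beside them is the mean with its SD (n = 3); every vertical axis starts at 0. All 3 libraries at 24 h lie below all 3 control libraries for 9 genes, and for GAPDH they overlap.

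Upstream sequences are shown for 4 of the 6 members whose RefSeq start site matches the canonical transcript. Those of the other 2, ENO1 and PKM, lie within annotated exons of the same gene over all 250 bases and are not printed; all 4 that are shown hold ACGTG, while ENO1 and PKM do not. The 4 include the gene with the largest drop at 24 h, LDHA, and the one with the smallest drop that passed the test, ALDOA, whose values follow. The sequences are the 250 bases before the start site from RefSeq (GRCh38.p14), 5′ to 3′, in lower case, with capitals for CACGTG (the E-box that c-Myc can bind), for ACGTG, a core of sites that HIF-1 can bind, and for the variant core GCGTG, on either strand.
LDHA (chr11:18394313-18394562, plus strand): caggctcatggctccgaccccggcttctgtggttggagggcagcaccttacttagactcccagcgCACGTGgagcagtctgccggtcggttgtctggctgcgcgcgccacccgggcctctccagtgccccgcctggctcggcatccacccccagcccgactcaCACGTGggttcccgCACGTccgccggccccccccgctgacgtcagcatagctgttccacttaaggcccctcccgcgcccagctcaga
PGK1 (chrX:78103998-78104247, plus strand): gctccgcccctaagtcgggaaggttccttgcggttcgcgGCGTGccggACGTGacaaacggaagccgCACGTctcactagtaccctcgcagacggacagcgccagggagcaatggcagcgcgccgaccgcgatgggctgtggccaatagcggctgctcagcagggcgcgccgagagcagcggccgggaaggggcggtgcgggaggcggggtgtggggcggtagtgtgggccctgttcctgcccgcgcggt
HK2 (chr2:74833877-74834126, plus strand): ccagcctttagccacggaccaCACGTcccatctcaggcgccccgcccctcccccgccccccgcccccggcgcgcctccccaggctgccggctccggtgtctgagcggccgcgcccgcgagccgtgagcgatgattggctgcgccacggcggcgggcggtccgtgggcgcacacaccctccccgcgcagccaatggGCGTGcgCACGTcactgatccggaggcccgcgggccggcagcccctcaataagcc
ALDOA (chr16:30065510-30065759, plus strand): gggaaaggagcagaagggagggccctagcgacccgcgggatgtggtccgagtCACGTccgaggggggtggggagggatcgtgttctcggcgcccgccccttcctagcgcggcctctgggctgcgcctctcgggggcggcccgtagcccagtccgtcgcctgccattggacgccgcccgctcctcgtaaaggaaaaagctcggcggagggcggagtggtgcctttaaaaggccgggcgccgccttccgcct
LDHA has 2 copies of CACGTG. Each holds ACGTG on both strands, so that 4 of its 5 copies of ACGTG lie inside them. PGK1 and HK2 each have 2 copies of ACGTG and 1 of GCGTG, and ALDOA has 1 of ACGTG. The windows of 6 of the 10 members hold ACGTG, against 18.5% of 35116 windows of that length, and those of 2 hold CACGTG against 6.35%. GCGTG was found in 3 of 10 against 32.2%, and the GC box GGGCGG in 8 of 10 against 42.6%. The windows of the 10 members were 54.8% to 76.8% G and C, and the 35116 windows were not matched to them for this. One window was taken per member, while the 35116 can hold several of a gene, so these shares do not measure enrichment. The windows of GPI, PFKP, GAPDH and PGAM1 end 204 to 1627 bases from the canonical start. Over the other 6 members, a restriction chosen after these counts were seen, ACGTG was found in 4, CACGTG in 1, GCGTG in 3 and GGGCGG in 5. A match is a description of letters and not a site, and the data hold no binding measurement.

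The first comparison asked which of these transcripts had moved within 30 min of matrine. None of the 10 passed the test. With edgeR's quasi-likelihood test and Benjamini-Hochberg adjustment over 11587 genes, 0 of 10 had an adjusted p below 0.05 in either direction, where 1.33% of all genes tested passed lower and 0.293% higher. At a change of 1.5-fold or more 0 of 10 were called, where 0.544% of the genes tested were called lower and 0.0949% higher. The same count was 0 at an unadjusted p below 0.05, 0 with DESeq2 and 0 with limma, and the adjusted p ran from 0.588 to 0.968. Log2 fold changes lay between -0.026 for HK2 and 0.079 for PGK1, and their 95% intervals together reached from -0.15 to 0.18, so a change of 1.5-fold in either direction fell outside the interval of each gene.

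PGK1, the first enzyme of the pathway to yield ATP, had 202.9, 193.6 and 195.3 FPKM at 30 min against 187, 189 and 189 in the control. It was the 1 gene of the 10 whose 30 min libraries all lay above the control ones, where 4.89% of the genes tested did, 0 of 10 lay below, where 8.91% did, and its adjusted p was 0.588. The values of HK2 at 30 min were 28.6, 29.6 and 33.7 FPKM, on both sides of the control values of 29.7 to 32.7. The libraries of a group tended to rank alike across the 10 genes: replicate 2 of the 30 min group was the lowest of its group for 7 genes, and replicate 2 of the control was the highest of its group for 7. The coefficient of variation within a group had a median over the 10 genes of 3.42% in the control, 5.37% at 30 min and 2.30% at 24 h.

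The second comparison addressed the state after 24 h. Of the 10 genes, 9 fell and 0 rose at an adjusted p below 0.05 (edgeR, 12035 genes tested), where 32.7% of all genes tested were lower and 30.6% higher at that threshold. With DESeq2 and with limma on log2(FPKM + 0.1), 8 fell and 0 rose. For 8 of the 9 genes that fell in edgeR the drop was between 19.1% and 32.7%, and ALDOA fell by 8.32%. All percent drops given for the 10 genes are edgeR's TMM-scaled fold changes and not those of the FPKM values printed beside them. The TMM factors were 1.024 to 1.04 at 24 h and 0.979 to 0.995 in the control, so the drops in FPKM are smaller. At the further requirement of a 1.5-fold change, 0 of 10 were called lower, where 11.6% of the genes tested were called lower and 14.7% higher, and DESeq2 and limma also called 0. In FPKM, all 24 h libraries lay below all control libraries for 9 of the 10 genes and above them for 0, where 31% of the genes tested lay below and 38.7% above. The median log2 fold change was -0.36 over the 10 genes and -0.0056 over all genes tested. In bulk RNA a smaller number of cells with a transcript and less of it in each cell cannot be told apart. Of the myeloid markers given above 6 rose and 3 fell at 24 h, beside the 30.6% higher and 32.7% lower of all genes tested. The 6 include MPO, which could enter the test only by rising. The part of these markers in the changes of the 10 genes was not tested.

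LDHA and PGAM1 had the largest drops of the 10. LDHA (ENSG00000134333), which encodes the subunit that favours making lactate, lies on chromosome 11 of GRCh38 from 18394560 to 18408425 on the plus strand. It had 155, 151 and 155 FPKM in the control, 162, 160 and 152 at 30 min, and 107, 108 and 108 at 24 h. The 24 h libraries stood close together and far below the other 6. The log2 fold change at 24 h was -0.57 (SE 0.048, adjusted p = 2.23e-09, edgeR), a drop of 32.7%. PGAM1 (ENSG00000171314, chromosome 10, 97426191 to 97433444, plus strand), which moves the phosphate of 3-phosphoglycerate, had 92.7, 97.3 and 89.2 FPKM in the control and 65.4, 65.0 and 67.7 at 24 h. Its log2 fold change was -0.56 (SE 0.055, adjusted p = 2.13e-08, edgeR). Counts assigned to its near-identical copies were at most 0.754% of its own. Without control replicate 3, PGAM1 had a log2 fold change of -0.59 and was the 1 gene of the 10 called at 1.5-fold. Over all genes, 1360 to 1426 were called lower and 1677 to 1791 higher when single libraries were left out.

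Of the kinases that commit sugar to the pathway, HK2 and PFKP also fell, as did HK1, while HK3 and PFKL, given below, rose. HK2 (ENSG00000159399, chromosome 2, 74834127 to 74893359, plus strand), which traps glucose as glucose 6-phosphate, had 32.7, 29.7 and 31.9 FPKM in the control and 24.1, 25.3 and 25.3 at 24 h, with no overlap between the groups. It fell by 24.1%, a log2 fold change of -0.40 (SE 0.062, adjusted p = 1.22e-05, edgeR). PFKP (chromosome 10, 3066333 to 3137718, plus strand), which makes fructose 1,6-bisphosphate, had 42.9, 42.8 and 43.2 FPKM in the control and 33.1, 33.3 and 34.6 at 24 h. Its drop of 24.9% was a log2 fold change of -0.41 (SE 0.056, adjusted p = 2.04e-06, edgeR).

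The enzymes that interconvert or oxidise the sugar phosphates did not move as one. GPI (chromosome 19, 34359480 to 34402413, plus strand), which turns glucose 6-phosphate into fructose 6-phosphate, had 135, 143 and 138 FPKM in the control and 116, 114 and 114 at 24 h. It fell by 20.8% in edgeR. ALDOA (chromosome 16, 30064164 to 30070457, plus strand), which splits the hexose bisphosphate, had 305, 334 and 311 FPKM in the control and 301, 303 and 305 at 24 h. The groups were apart by less than 1 FPKM, and the log2 fold change was -0.13 (SE 0.052, adjusted p = 0.0409, edgeR). This call held in 5 of 17 settings, the reported one included, and was lost, for example, without control replicate 2 (adjusted p = 0.164) and without each of the 24 h libraries. GAPDH (chromosome 12, 6534512 to 6538374, plus strand), which is often taken as a reference transcript, had 1177, 1171 and 1223 FPKM at 24 h against 1132, 1266 and 1171 in the control. The groups overlapped, and its log2 fold change was -0.061 (95% interval -0.17 to 0.048, adjusted p = 0.354, edgeR), turning to 0.0038 when counts were scaled by library totals alone.

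The later enzymes of the pathway fell between those extremes. PGK1 (chromosome X, 77910739 to 78129295, plus strand) had 149, 152 and 154 FPKM at 24 h, below the 187 to 189 of the control, and fell by 22.9%. ENO1 (chromosome 1, 8861000 to 8879190, minus strand), which makes phosphoenolpyruvate, had 1016, 1086 and 1015 FPKM in the control and 853, 843 and 901 at 24 h, a drop of 20.2%. PKM (chromosome 15, 72199029 to 72231819, minus strand), which makes pyruvate and a further ATP, had 505, 532 and 522 FPKM in the control and 438, 424 and 455 at 24 h, a drop of 19.1%. The percentages of these 3 genes are edgeR's scaled fold changes, and their adjusted p was between 7.78e-07 and 3.15e-05 in edgeR. Exons of PGK1 overlap those of ATP7A on the same strand and exons of ENO1 those of ENO1-AS1 on the other, and the mean FPKM of each overlapping gene was at most 0.891.

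**Figure D2:**
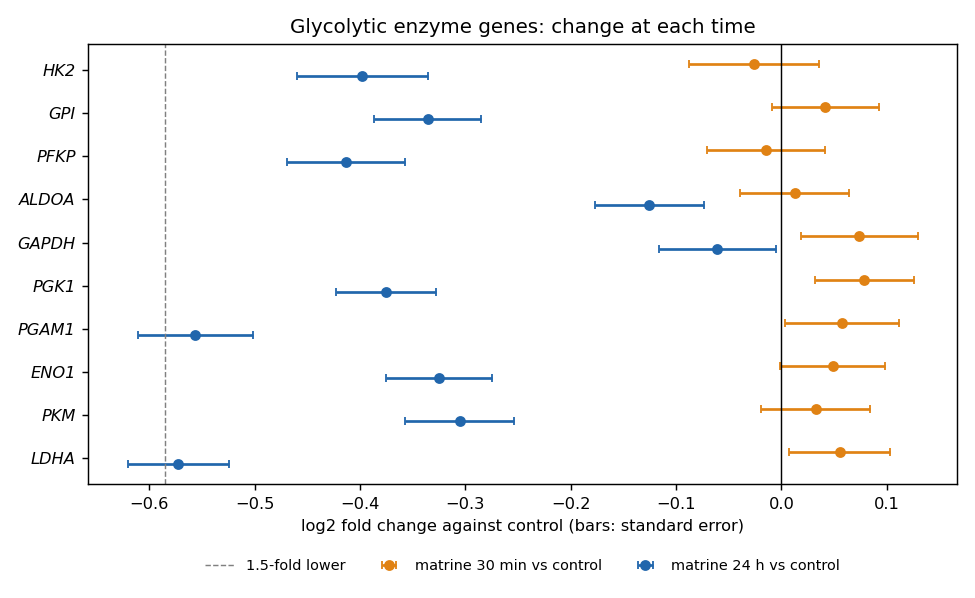
Log2 fold change of the 10 glycolytic enzyme genes against the control after 30 min and after 24 h of matrine, with standard errors from edgeR. The dashed line marks a drop of 1.5-fold. At 30 min the values lie between -0.026 and 0.079, and at 24 h between -0.57 for LDHA and -0.061 for GAPDH.

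Ratios within a library do not depend on how the libraries are scaled. LDHA amounted to 13.7%, 12.0% and 13.2% of the FPKM of GAPDH in the control, 12.6%, 13.9% and 11.9% at 30 min, and 9.07%, 9.24% and 8.86% at 24 h. For all 9 other genes the ratio to GAPDH was lower in each 24 h library than in each control library (two-sided exact permutation p = 0.1 for each, the smallest that 3 against 3 allows), where 28.3% of the other genes tested had a ratio to GAPDH below the control without overlap and 35.9% above. Such a ratio shows unequal change and not that GAPDH was constant. GAPDH had the smallest change of the 10 at 24 h (log2 fold change -0.061). The 9 ratios share it and the same libraries, so they largely restate the drops above and are not separate evidence. At 30 min the ratio lay below the control without overlap for 1 of the 9, ALDOA, and above it for 0, where 10.2% of the other genes tested lay below and 1.86% above. The order of levels also changed at 1 place: LDHA stood above GPI in all control and 30 min libraries, and GPI stood above LDHA in all 24 h libraries.

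Between the treated groups, 10 of 10 genes were lower at 24 h than at 30 min at an adjusted p below 0.05 (edgeR, 11981 genes tested, of which 32.1% were lower and 33.2% higher). LDHA, with a log2 fold change of -0.63 (SE 0.048), and PGAM1, with -0.61 (SE 0.055), were called at 1.5-fold, where 11.3% of the genes tested were called lower and 15.7% higher. Neither of these calls held when the counts were scaled by library totals alone or by upper quartiles, with a filter of mean FPKM above 5, or with limma. In FPKM, 8 of the 10 genes had all 24 h libraries below all 30 min libraries and 0 had them above, where 28.6% of the genes tested lay below and 39.9% above. ALDOA and GAPDH, at -0.14 and -0.13, had adjusted p of 0.0267 and 0.0416.

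Genes for the other isozymes and for TPI1, which catalyses the step left out above, were also measured. Of 22 genes in this group, 10 passed the filter, and at 24 h 3 fell, 5 rose and 2 did not pass the test, beside 32.7% lower and 30.6% higher over all genes tested, with a median log2 fold change of 0.11. ALDOC, the brain-type aldolase, had 4.84, 5.20 and 4.87 FPKM in the control and 18.1, 17.3 and 19.1 at 24 h. It rose by 1.81 on the log2 scale (SE 0.084, adjusted p = 2.86e-13, edgeR) and went from 1.55% ± 0.014 to 5.66% ± 0.24 of the summed aldolase FPKM (SD, n = 3). That sum was 321.5 ± 15.2 FPKM in the control and 321.1 ± 2.5 at 24 h. HK3, a hexokinase of blood cells, rose by 0.82 (SE 0.096) and took 9.94% ± 0.83 of the hexokinase FPKM in the control and 20.2% ± 0.46 at 24 h, while HK2 went from 47.7% ± 1.02 to 41.8% ± 0.77. HK1 fell by 0.37 on the log2 scale.

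For phosphofructokinase, PFKP had 50.5% ± 1.31 of the summed FPKM in the control and 40.8% ± 0.50 at 24 h, and the liver-type gene PFKL had 49.1% ± 1.32 and 58.4% ± 0.44. The summed FPKM of the step was 85.1 ± 1.88 in the control and 82.5 ± 1.81 at 24 h. ENO3 and ENO2, the muscle and neuronal enolases, rose by 0.68 and 0.56 on the log2 scale, yet ENO1 still made up 99.15% ± 0.026 of the enolase FPKM at 24 h. LDHA and LDHB, whose products form the same tetramers, shifted less against each other: LDHA had 35.2% ± 1.01 of their FPKM in the control and 33.7% ± 0.68 at 24 h (two-sided exact permutation p = 0.2). LDHB fell by 0.48 on the log2 scale (SE 0.055), and so did TPI1, the isomerase of the triose phosphates, by 0.41. PFKL rose by 0.14 on the log2 scale, a call that held in 11 of 17 settings and was lost without control replicate 1 or 3 and without replicate 2 or 3 of the 24 h group, among others. HK1, PFKL, ENO2, LDHB and TPI1 were named after their values were seen.

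**Figure D3:**
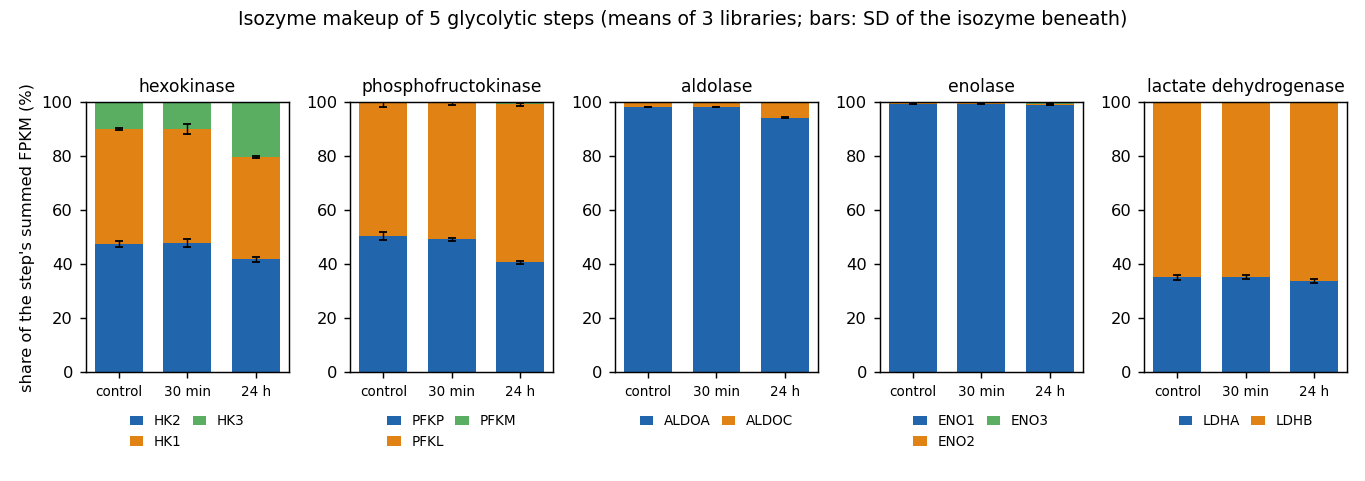
Share of each isozyme in the summed FPKM of 5 glycolytic steps in control cells, at 30 min and at 24 h (means of 3 libraries; the error bar at the top of a segment is the SD of that isozyme). The shares of HK3, PFKL and ALDOC are larger at 24 h than in the control, and that of LDHA was 35.2% in the control and 33.7% at 24 h.

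Hexose and lactate transporters bring sugar in and carry lactate out. Of 17 such genes 9 passed the filter, and at 24 h 5 fell, 3 rose and 1 did not pass the test, beside the same 32.7% lower and 30.6% higher over all genes. SLC2A1, which encodes the glucose transporter GLUT1, had 26.6, 28.3 and 28.4 FPKM in the control and 17.1, 16.9 and 17.4 at 24 h, and fell by 0.75 on the log2 scale (SE 0.061). SLC16A1, the lactate carrier MCT1, had 37.8, 35.4 and 36.7 FPKM in the control and 18.9, 19.3 and 18.9 at 24 h, and fell by 1.00 (SE 0.055). SLC2A3, which encodes GLUT3, rose by 0.95 (SE 0.082) from a mean of 4.75 to 9.56 FPKM, and SLC2A6 rose by 1.81 (SE 0.21) from 0.563 to 2.06 FPKM. Both differences separated all 24 h libraries from the control ones. SLC2A6 had a control mean below 1 FPKM and passed the filter only through its 24 h values. A gene this low could enter the test only by rising, so SLC2A6 adds no support to the 3 that rose.

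Of the 5 genes for fructose 2,6-bisphosphate, the activator of phosphofructokinase, 3 passed the filter, and 2 rose, beside 30.6% higher and 32.7% lower over all genes tested. PFKFB4 had 1.23, 1.72 and 1.5 FPKM in the control and 6.52, 6.19 and 6.66 at 24 h, a log2 fold change of 2.06 (SE 0.12, adjusted p = 1.2e-11, edgeR). PFKFB3, named after its values were seen, rose by 0.21 (SE 0.067), a call that held in 16 of 17 settings and was lost without the FPKM filter. In the pentose phosphate pathway, which branches off at glucose 6-phosphate, 8 of 10 genes passed the filter, 3 fell and 3 rose, near the 32.7% lower and 30.6% higher of all genes. PGD and H6PD, both dehydrogenases that yield NADPH, rose by 1.16 and 1.41 on the log2 scale, and RPIA, the ribose 5-phosphate isomerase, fell by 0.94. PGD went from a mean of 82.8 to 193.6 FPKM, above that of PGK1 at 24 h.

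Of 15 genes for the fate of pyruvate 13 passed the filter, of which 6 fell and 4 rose, beside 32.7% lower and 30.6% higher over all genes. PDHA1, a subunit of pyruvate dehydrogenase, fell by 0.61 and was the 1 of them called at 1.5-fold, a call that held in 11 of 17 settings and was lost without replicate 1 of the 24 h group (log2 fold change -0.58) and with library totals alone, among others. Of 17 genes of the glycogen, glycerol and hexosamine branches 11 passed the filter, 3 fell and 4 rose, again near those shares, with GPD1L at -0.61, called at 1.5-fold in 10 of 17 settings and not without control replicate 1 or without replicate 3 of the 24 h group. Of 7 genes of gluconeogenesis 2 passed the filter, and PCK2, which makes phosphoenolpyruvate in mitochondria, rose by 0.70, where 30.6% of all genes were higher. At 30 min 0 genes of these 8 groups passed the test, from the isozymes to the hypoxia-inducible targets, with the regulators below as the exception. Over all genes tested at that time, 1.33% passed lower and 0.293% higher.

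**Figure D4:**
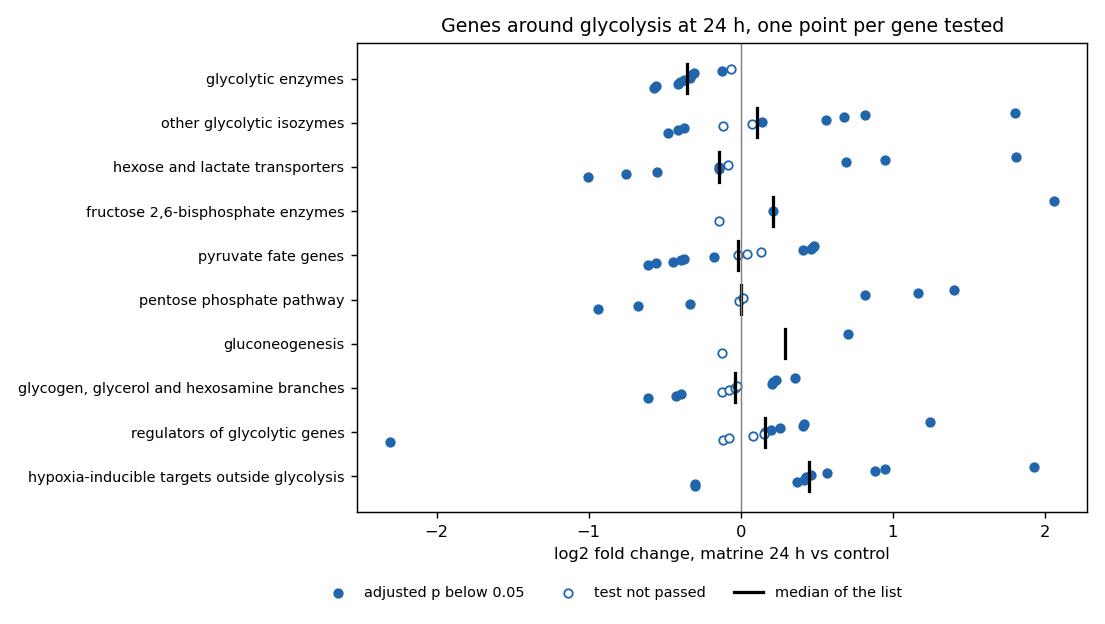
Log2 fold change at 24 h against the control of each tested gene of the 10 glycolytic enzymes and of 9 groups around them. Filled points passed an adjusted p of 0.05 in edgeR, open points did not, and black lines are medians, which run from -0.36 for the glycolytic enzymes to 0.45 for the hypoxia-inducible targets. The points and medians include SLC2A6 and ANKRD37, which passed the filter only through their 24 h values.

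Of 13 regulators of glycolytic genes 11 passed the filter, and at 24 h 1 fell, 6 rose and 4 did not pass the test, beside 32.7% lower and 30.6% higher over all genes. MYC, which encodes c-Myc, had 204, 213 and 204 FPKM in the control, 49.1, 55.1 and 58.0 at 30 min, and 42.2, 46.1 and 43.1 at 24 h. It fell by 1.93 on the log2 scale at 30 min and by 2.30 at 24 h (edgeR), and at 30 min it was the 1 regulator that passed the test. The control libraries are shared between these values and those of the 10 enzymes. HIF1A, the oxygen-regulated subunit of HIF-1, had a log2 fold change of -0.12 at 30 min that did not pass the test and rose by 0.20 at 24 h (SE 0.067, adjusted p = 0.0122, edgeR), a call that held in 15 of 17 settings and was lost without replicate 2 of the 24 h group and without the FPKM filter. EPAS1, its relative HIF-2 alpha, rose by 1.25. Of 14 hypoxia-inducible targets outside glycolysis 10 passed the filter, 2 fell and 8 rose, beside the same shares over all genes, with EGLN1 counted in both of these lists. BNIP3L, a mitophagy receptor, had 5.88, 4.64 and 5.20 FPKM in the control and 21.8, 20.5 and 20.3 at 24 h, VEGFA rose by 0.88 and ANKRD37 rose by 0.95 on the log2 scale. ANKRD37 had a mean of 0.917 FPKM in the control and 1.85 at 24 h, and passed the filter only through the latter. It could enter the test only by rising, so it adds no support to the 8 that rose. The 10 glycolytic enzymes, 9 of which fell in edgeR and 8 in DESeq2, stood at a median of -0.36 beside the 0.45 of these targets. The latter median includes ANKRD37 and is raised by the way that gene entered. The difference between the lists was not tested.

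Across the 9 libraries the gene with a pattern most like that of HK2, measured by Pearson's r of log2(FPKM + 0.1) and given without a test, was PFKP among the 10 enzymes (r = 0.963), while GAPDH had r = 0.10 and ALDOA r = 0.50. Outside them the 5 most alike were BMP8B (r = 0.989), KIAA1549, GFOD1, FYCO1 and PLXNA1 (r = 0.980). Of 12156 genes compared, 510 had r above 0.9, and the 9 points fall into the 3 groups of libraries and share their depth.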

How the data were processed

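Paired-end RNA-seq of 9 U937 libraries was analysed, 3 per group. The authors trimmed reads (cutadapt 1.9.1, per the submitters' processing notes), mapped them with Hisat2 2.0.1 and counted them per gene with HTSeq 0.6.1, and deposited raw counts for 57905 Ensembl genes. The study's methods name hg38 and its processing notes GRCh37, so coordinates printed are those of GENCODE 44 (GRCh38) and not the files' own. Strand setting, annotation release and treatment of multi-mapping reads are not given in the sources used here, which limits overlapping genes and near-identical copies. Libraries were made with an mRNA-seq kit per the labels, and the study's methods also name rRNA removal. The FPKM values were deposited by the authors, rounded to 2 decimals, and equal the count divided by gene model length and by the library's total, with a constant factor, so levels between genes depend on the gene model lengths (2568 to 9112 bases here).

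Of the identifiers, 51996 matched a GENCODE 44 symbol. Counts were tested with edgeR 4.0.16 (R 4.3.3), TMM scaling and the quasi-likelihood test on all 9 libraries in 1 fit, on genes with a mean FPKM above 1 over the 6 libraries compared. Passing the test ("rose", "fell") means a Benjamini-Hochberg adjusted p below 0.05 over all genes tested, and "called" a fold change of at least 1.5 as well. The SE was derived from each log2 fold change and its quasi-likelihood F statistic, and 95% intervals are 1.96 SE on each side. Single values were compared with exact permutation tests, which give no two-sided p below 0.1. The procedure was tested on simulated data. The members and gene lists were chosen with earlier results of these data known. Genes named were the 10 enzymes, MYC, HIF1A, up to 4 called genes per list with the largest change at 24 h, and the 5 genes most like HK2; others are marked, and 1 gene that this rule takes is not reported here. Alternatives were RLE, library totals and upper-quartile scaling, other FPKM filters, DESeq2 1.42.0, limma 3.58.1 on log2(FPKM + 0.1) and log2(FPKM + 1), other fold thresholds, a replicate block, only the 6 libraries compared and each library left out. Those for genes outside the 10, and for shares and ratios, were added after the data were seen.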

Additional observations from a re-analysis of the deposited data

Results flagged for a closer look

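The change from the control differed between 24 h and 30 min of matrine for each of the 10 glycolytic enzyme genes, by the test of the 2 treated groups against each other (edgeR, adjusted p below 0.05). Over all 11981 genes tested, 32.1% were lower and 33.2% higher in that comparison. The log2 fold change of 24 h against 30 min was -0.63 for LDHA, -0.61 for PGAM1, -0.45 for PGK1, -0.40 for PFKP, -0.38 for GPI, -0.37 for ENO1, -0.37 for HK2, -0.34 for PKM, -0.14 for ALDOA and -0.13 for GAPDH. The last 2 overlapped between the groups in FPKM, and their adjusted p did not stay below 0.05 in 11 of 17 settings for ALDOA and 10 of 17 for GAPDH. With 3 libraries per group, no test for single stray libraries was applied.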

How the results depend on the processing

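At 30 min, 0 of 10 genes passed in the test reported or in any of the 16 alternatives, and near-zero changes turned sign when a library was left out: from -0.095 to 0.026 for HK2, from -0.064 to 0.045 for PFKP, from -0.015 to 0.079 for ALDOA and from -0.0074 to 0.11 for PKM. At 24 h against the control, 8 genes other than ALDOA and GAPDH fell under all alternatives. GAPDH turned to 0.0038 with library totals alone, 0.020 on genes whose mean FPKM exceeded 5, and 0.002459 and 0.002456 with limma at pseudocounts of 0.1 and 1. Without the FPKM filter it passed at -0.11 (edgeR, adjusted p = 0.0481). The number called was 2 without the FPKM filter, 9 with no fold threshold, 8 at 1.2-fold, and 0 to 1 with each library left out. In the fit reported, 11.6% of all genes tested were called lower and 14.7% higher. The share over all genes without the FPKM filter is not given here, so the 2 are not read as a result. Over all 12035 genes tested, 3939 were lower and 3688 higher with no fold threshold, and 3311 and 3229 at 1.2-fold. With each library left out, 1360 to 1426 of all genes were called lower and 1677 to 1791 higher. Between 24 h and 30 min the number of the 10 called was 0 with library totals, upper quartiles, a mean FPKM above 5, both limma fits and a 2-fold threshold. It was 8 at 1.2-fold and 10 with no fold threshold. Of all 11981 genes tested there, 3215 were lower and 3486 higher at 1.2-fold, and 3844 and 3981 with no fold threshold. The cause of these differences between settings was not tested, except that a lower threshold admits more genes by construction. Replicate numbers gave no sign of pairing: the deviations of same-numbered libraries correlated at -0.13 to 0.079, and those of differently numbered ones at -0.12 to 0.17. With 3 libraries a group, this cannot exclude that same-numbered libraries were handled together. With the replicate number as a block, 0, 8 and 8 genes of the 10 passed at 30 min, at 24 h and between the treated times, and ALDOA at 24 h had an adjusted p of 0.0714 (edgeR). Without the block, 1.33%, 32.7% and 32.1% of all genes tested passed lower in these comparisons and 0.293%, 30.6% and 33.2% higher. The shares with the block are not given here. SLC2A6 and ANKRD37 at 24 h had log2 fold changes of 0.97 and 0.57 with limma at a pseudocount of 1. Over all genes, the number called lower and higher at 24 h was 1401 and 1773, against 771 and 890 on genes whose mean FPKM exceeded 5, 896 lower with limma at a pseudocount of 1, and 375 and 751 at 2-fold. At 30 min it was 63 and 11, against 95 and 30 without the filter and 23 and 1 at 2-fold. With 3 libraries a group, the 95% intervals of the 10 genes at 30 min reached from -0.15 to 0.18 on the log2 scale.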
